A study of Mus musculus with 20 samples.

Results

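The genes that encode the proteins of the cytosolic ribosome were followed in the inguinal fat pad (iWAT, a white fat depot under the skin of the groin) of 20 female C57BL/6 mice. They were taken as the protein-coding genes of the mouse annotation NCBIM37 (mm9) with symbols of Rpl or Rps and a number, together with *Rplp0*, *Rplp1*, *Rplp2* and *Rpsa*. The Rps6k kinases and the copies with symbols ending in -ps were left out. This rule used no measured value and gave 85 of 36611 genes. Of these, 42 encode proteins of the large (60S) subunit, 31 encode proteins of the small (40S) subunit and 3 encode the P stalk of the large subunit (*Rplp0*, *Rplp1* and *Rplp2*). A further 8 are paralogs (*Rpl3l*, *Rpl7l1*, *Rpl10l*, *Rpl22l1*, *Rpl36al*, *Rpl39l*, *Rps27l* and *Rps4y2*), and *Rps19bp1* encodes a partner of *Rps19* that is no ribosomal protein and entered no sum. *Rpl41* was not analysed here. The members lie on 19 chromosomes, with 14 on chromosome 7 and 4 on the X.

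The mice formed 4 groups of 5, all 6 months old and kept for 15 weeks on a diet low in fat (LFD, with 10.5% fat) or rich in fat (HFD, with 58% fat). Control mice, labelled wild type, were littermates homozygous for the floxed allele (*Tmem120a* fl/fl, exons 2 and 3) without Cre. In Ad-Tmem120a-/- mice the same allele was combined with Adiponectin-Cre, which acts in adipocytes, so the vessel, immune and stromal cells of the tissue keep the gene. The groups are called below control or knockout mice on either diet, and single mice go by the number of their library. Values are in TPM, the share of RNA molecules corrected for transcript length and scaled to a fixed total per library, summed over the transcripts of a gene. In whole tissue, fewer cells of a type and less RNA per cell cannot be told apart.

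A ribosome joins a small subunit, which reads the message, to a large subunit, which forms the peptide bond, and each subunit is made of ribosomal RNA and a single copy of nearly every ribosomal protein. The messages of these proteins are among the most abundant of most tissues. They start with a C followed by a run of pyrimidines, the terminal oligopyrimidine (TOP) tract, through which the kinase mTOR and the protein Larp1 control their translation. Genes of ribosomal proteins have left many processed copies in mammalian genomes, some with the whole coding sequence intact.

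The start of the messages is shown first, since it is the feature that the family is known to share. Each window of 30 bases opens 10 bases before the RefSeq start of the message, on the transcribed strand of GRCm38.p6. Capitals mark a C followed by at least 6 bases that are each C or T, with the C within 10 bases of the start. The windows of *Rps6* (chr4:86857348-86857377 on the minus strand), whose protein is the classical substrate of the S6 kinases, of *Rps27* (chr3:90213629-90213658 on the minus strand), of *Rps24* (chr14:24490668-24490697 on the plus strand), the most abundant member here, of *Rpl38* (chr11:114668570-114668599 on the plus strand) and of *Rplp2* (chr7:141447641-141447670 on the plus strand) hold such a run. That of *Rplp0* (chr5:115559457-115559486 on the plus strand) at the annotated start does not.
Rps6: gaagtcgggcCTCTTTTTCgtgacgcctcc
Rps27: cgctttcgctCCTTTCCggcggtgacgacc
Rps24: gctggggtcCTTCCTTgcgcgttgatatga
Rpl38: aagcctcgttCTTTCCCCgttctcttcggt
Rplp2: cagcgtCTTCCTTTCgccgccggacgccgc
Rplp0: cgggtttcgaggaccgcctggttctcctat
A window was found for 62 of the 84 ribosomal protein members, and 30 of these 62 (48.4%) held the run, against 3821 of 27025 genes of all kinds (14.1%) and 7 of 69 genes of mitochondrial ribosomal proteins (10.1%). The search covered the transcribed strand only. An annotated start that is off by more than 10 bases would hide the tract, so a window without it says nothing about the message.

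The annotated member is not always the copy that holds the estimated reads, and paralogs differ from it by many bases, as the coding sequences of *Rps27* and *Rps27l* show. *Rps27* (NCBIM37, chr3:90016593-90017573, minus strand) and its paralog *Rps27l* (chr9:66793893-66797323, plus strand) both encode Rps27-type zinc finger proteins of the small subunit. Their coding sequences of 255 bases share 194 bases (76.1%), and capitals mark the 61 that differ.
Rps27: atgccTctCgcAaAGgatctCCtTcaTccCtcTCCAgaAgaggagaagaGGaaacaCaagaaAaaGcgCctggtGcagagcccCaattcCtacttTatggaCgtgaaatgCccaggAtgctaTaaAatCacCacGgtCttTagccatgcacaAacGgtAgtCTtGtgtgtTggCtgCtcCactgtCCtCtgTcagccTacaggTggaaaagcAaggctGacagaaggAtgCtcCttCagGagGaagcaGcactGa
Rps27l: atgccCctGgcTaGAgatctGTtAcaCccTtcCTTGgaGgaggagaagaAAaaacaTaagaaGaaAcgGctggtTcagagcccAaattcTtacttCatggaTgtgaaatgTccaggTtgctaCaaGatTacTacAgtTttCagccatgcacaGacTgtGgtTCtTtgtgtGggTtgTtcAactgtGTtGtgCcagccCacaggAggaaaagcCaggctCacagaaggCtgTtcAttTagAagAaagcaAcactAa
The coding sequences of *Rpl39* (chrX:34622515-34625397, minus strand), which lies at the exit of the peptide tunnel, and of *Rpl39l* (chr16:10170319-10175004, plus strand), a paralog best known from the testis, are 156 bases long and differ at 23 of them, again in capitals.
Rpl39: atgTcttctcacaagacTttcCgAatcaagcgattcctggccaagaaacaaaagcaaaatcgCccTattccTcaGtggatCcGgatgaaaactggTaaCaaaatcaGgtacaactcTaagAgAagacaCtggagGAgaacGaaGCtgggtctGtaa
Rpl39l: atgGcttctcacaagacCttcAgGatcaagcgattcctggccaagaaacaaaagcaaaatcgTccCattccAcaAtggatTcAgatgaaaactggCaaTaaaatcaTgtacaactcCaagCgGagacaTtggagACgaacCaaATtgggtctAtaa
In contrast, the gene *Gm9846* (chr9:114891515-114891858, minus strand), annotated as protein coding, is identical to the *Rps27* coding sequence over its whole length, and the reads of the 2 genes cannot be told apart within it.

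The depth of the libraries ran from 54605101 to 92387737 estimated counts. The targeted gene, *Tmem120a*, had means of 85.4 ± 28.4 (control) and 41.5 ± 21.9 TPM (knockout; SD, n = 5) on LFD, and of 119 ± 44.5 and 51.6 ± 26.7 TPM on HFD. Transcripts of the mitochondrial genome held 24.3% ± 4.59 and 24.6% ± 3.36 of all TPM in control and knockout mice on LFD, and 15.6% ± 1.99 and 17.03% ± 3.32 on HFD. All TPM sums below are shares of the same total, so this difference between the diets bears on them. The 14 markers of white adipocytes were found in every group, with summed means between 17883 and 26680 TPM.

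The 84 ribosomal protein members together held 3.001% of all TPM, with a mean sum of 30012 ± 5515 TPM (SD, n = 20). The sum was 20528, 30969.5, 30065, 41981 and 25455 TPM in control LFD mice, 28923, 40736, 30642, 25651 and 26279 in knockout LFD mice, 30017, 24112, 35059, 28409 and 25956 in control HFD mice and 35142, 29216, 23939.6, 35143 and 32012 in knockout HFD mice. The lowest and the highest of all 20 libraries, those of control mice 1 and 4, both belonged to control mice on LFD, and the 4 groups overlapped. The group means were 29800 ± 7979 (control) and 30446 ± 6095 TPM (knockout) on LFD, and 28711 ± 4208 and 31090 ± 4699 TPM on HFD. The log2 ratio of knockout to control was 0.11 on HFD and 0.03 on LFD, and that of HFD to LFD was -0.05 in control and 0.03 in knockout mice, against pooled SDs of the log2 sums of 0.22, 0.33, 0.31 and 0.25. Each difference was thus smaller than the spread between mice. When TPM was rescaled to the protein-coding genes outside the mitochondrial genome, the ratio of HFD to LFD became -0.32 in control and -0.22 in knockout mice. Their pooled SDs were 0.31 and 0.24, while the ratios of genotype stayed at 0.12 and 0.03. On summed counts with TMM scaling the ratio of knockout to control was 0.10 on HFD and -0.10 on LFD, against pooled SDs of 0.21 and 0.35. That of HFD to LFD was then -0.25 in control and -0.05 in knockout mice.

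**Figure D1:**
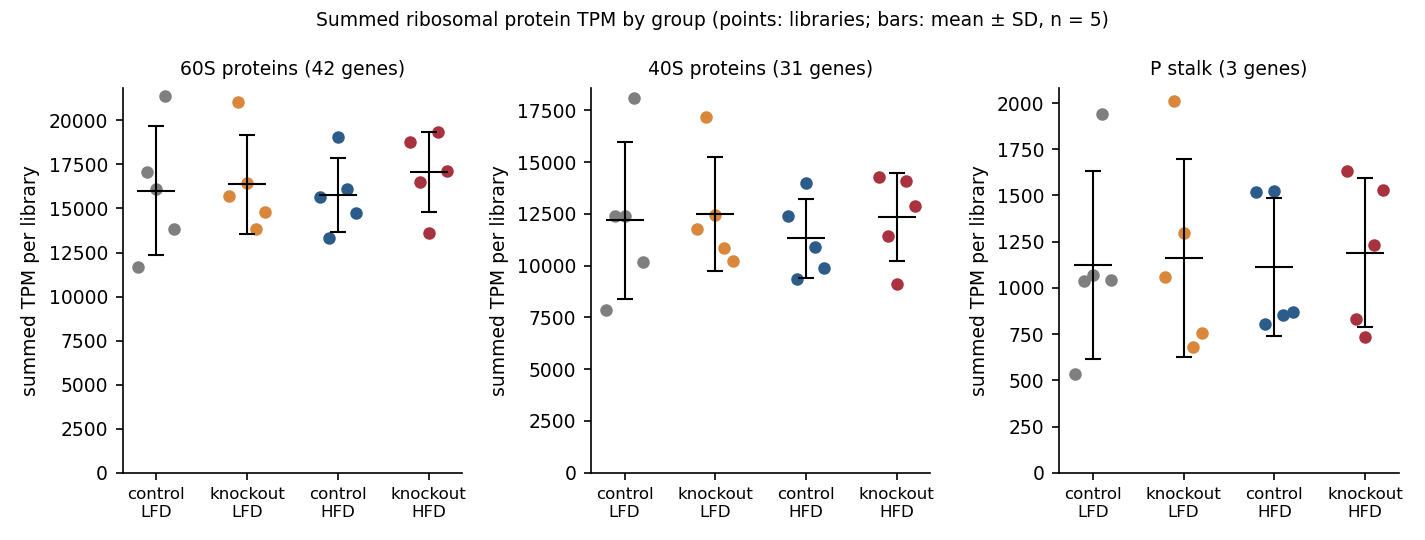
Summed TPM (y axis) of the 60S, 40S and P stalk members in the 4 groups (x axis). Points are libraries and bars are means with SD, n = 5. In each panel the points of the 4 groups overlap, and the widest group, control mice on LFD, reaches from 11700 to 21381 TPM in the 60S sum.

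Both subunits moved together between libraries. The 42 members of the 60S subunit had group means of 16013 ± 3654 and 16363 ± 2797 TPM in control and knockout mice on LFD, and 15770 ± 2106 and 17070 ± 2268 TPM on HFD. The 31 members of the 40S subunit had means of 12184 ± 3797 and 12492 ± 2753 TPM on LFD, and 11318 ± 1895 and 12354 ± 2139 TPM on HFD. Their log2 sums had a correlation of r = 0.97 (Spearman's rho = 0.94) over the 20 libraries, all of them shares of the same library totals. The ratio of 60S to 40S sums lay between 1.18 and 1.49 in single libraries, with means of 1.34 ± 0.113, 1.32 ± 0.0840, 1.40 ± 0.0942 and 1.39 ± 0.0752 in the same order of groups, a difference between the diets smaller than the SD of each group. The P stalk, which recruits the GTPases of translation to the ribosome, varied more widely, from 532 to 2010 TPM or 3.78-fold, with group means between 1114 and 1191 TPM. The paralogs summed to 479 ± 64.3, 431 ± 85.7, 508 ± 54.3 and 475.5 ± 31.2 TPM.

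The number of transcripts detected, with an estimated count of at least 1, was set beside these sums. It was 40451, 50910, 52487, 52413 and 49335 in control LFD mice, 49483, 51235, 45398, 32455 and 37254 in knockout LFD mice, 52308, 46444, 45488, 38958 and 34593 in control HFD mice and 45695, 31053, 36635, 40313 and 47152 in knockout HFD mice. Control mouse 1 lay below the other 4 control mice on LFD, and the groups overlapped in every pair. The means were 49119 ± 5015 and 43165 ± 8057 in control and knockout mice on LFD, and 43558 ± 6895 and 40169.6 ± 6613 on HFD. None of the 4 differences passed an exact two-sided permutation test, with p = 0.206 for genotype on LFD, 0.444 for genotype on HFD, 0.175 for diet in control and 0.516 for diet in knockout mice, or 0.413, 0.516, 0.413 and 0.516 after adjustment over the 4. The smallest p that 5 mice against 5 allow is 0.00794. Without control mouse 1 the diet difference in control mice was -7728 transcripts, with an unadjusted exact p of 0.0476.

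Libraries with more transcripts detected had higher ribosomal protein sums. The log2 sum had r = 0.48 (rho = 0.46) with the number of transcripts over the 20 libraries, 0.61 (0.59) on deviations from the group means and 0.50 (0.45) without the 2 libraries farthest from the median number. It was 0.63 (0.70) over the 10 libraries on LFD and 0.33 (0.33) over the 10 on HFD. The ratio of 60S to 40S went the other way, with r = -0.64 (rho = -0.65) over the 20 libraries, -0.41 on LFD and -0.83 on HFD. Both measures come from the same libraries and share their depth, and the log2 sum had r = 0.41 with the total counts. The values are given as a description with no p.

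**Figure D2:**
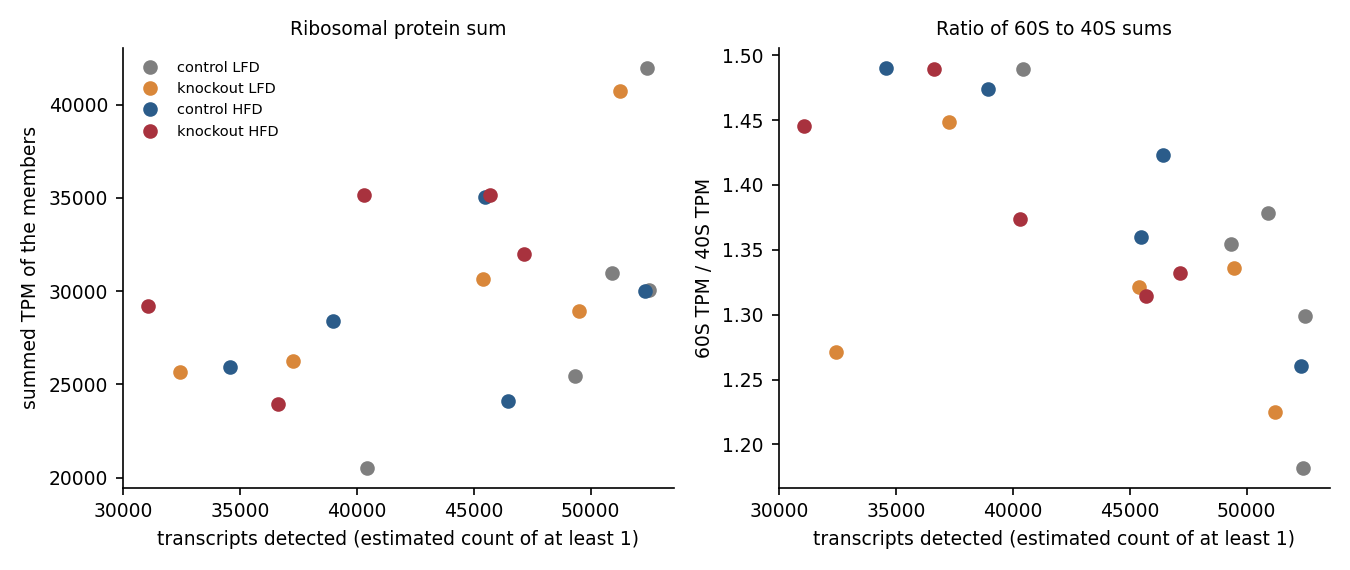
Summed TPM of the ribosomal protein members (left) and the ratio of 60S to 40S sums (right) against the number of transcripts detected at an estimated count of at least 1, 1 point per library, coloured by group. The sum is higher in libraries with more transcripts (r = 0.48 for the log2 sum) and the ratio is lower (r = -0.64 for the log2 ratio).

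Levels of the members differed widely. *Rps24*, needed for the processing of the small subunit's RNA, had the highest mean over the 20 libraries (1523 TPM), followed by *Rpl30* (1381), *Rps23* (1112), a protein of the decoding centre, *Rps3a* (1090), *Rpl38* (1052), *Rpl23* (999), *Rpl26* (938) and *Rpl24* (899). The median of the 76 core members, those of the subunits and the P stalk without the paralogs, was 268 TPM, and the lowest was *Rpl27* at 6.23 TPM, 244-fold below *Rps24*. The 10 most abundant members held 35.3% of the summed TPM. Of the 85 genes, *Rpl10l* was at 0 in all 20 libraries, *Rps27* was at 0 in 15, *Rpl3l* in 8 and *Rpl27* in 1.

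*Rps24* was at 873, 1623, 1673, 2603 and 1309 TPM in control LFD mice, 1632, 2359, 1609.6, 1493 and 1412 in knockout LFD mice, 1386, 1056, 1625, 1295 and 1124 in control HFD mice and 1796, 1367, 1041, 1735 and 1452 in knockout HFD mice. Control mouse 4 and knockout mouse 7 were the highest of all 20, both on LFD, and control mouse 1 was the lowest. The same 3 libraries bounded most members, since 44 of the 76 core members had their highest TPM in control mouse 4, 12 in knockout mouse 7, 9 in knockout mouse 18 and 6 in knockout mouse 20. The lowest value lay in control mouse 1 for 40 core members and in knockout mouse 9 for 14.

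The steadiest core member was *Rpl4*, a protein of the peptide tunnel, whose SD of log2(TPM + 1) within groups was 0.15. It lay at 629.9, 692, 628, 723 and 588 TPM in control LFD mice, 656, 757, 625, 678 and 733 in knockout LFD mice, 563, 579, 734, 789 and 654 in control HFD mice and 699, 766, 722, 824 and 658 in knockout HFD mice. The 20 values ran from 563 to 824 TPM with no group apart. *Rpl30* was almost as even, between 983 and 1804 TPM. In contrast, *Rplp1* of the P stalk had an SD of 0.75 and lay at 94.9, 270.5, 276, 631 and 214 TPM in control LFD mice, 245, 490.0, 416, 133 and 149 in knockout LFD mice, 383, 167, 343, 192 and 223 in control HFD mice and 351, 181, 151, 257 and 362 in knockout HFD mice. Its values covered a 6.65-fold range, and the extremes again belonged to control mice 1 and 4. *Rps14*, a small subunit protein that lines the platform, ran over 9.82-fold, from 18.1 to 177 TPM in the same 2 mice. *Rpsa*, also known as the laminin receptor, ran from 169.8 to 758 TPM.

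Among the core members the SD within groups had a median of 0.41, against 0.34 over the 15574 genes of at least 0.5 TPM. Members with more G and C in the coding sequence tended to vary more. Over the 76 core members the SD and the GC content had rho = 0.57 (r = 0.24), and over the 55 whose near-identical copies (below) held at most 10% of the TPM of member and copies together rho was 0.67 and r was 0.64. In the 18 of these 55 with the lowest GC content (median 48.3%) the median SD was 0.27, and in the 18 with the highest (median 56.9%) it was 0.55. The relation was loose for single members. *Rpl36*, with the highest GC content (61.3%), had an SD of 0.43, and *Rps29* (58.5%), *Rpl13* (58.2%) and *Rps2* (58.2%) lay at 0.43, 0.44 and 0.38, all near the median of 0.41. In contrast, *Rpl18* (58.9%), *Rps15* (58.7%) and *Rpl8* (58.7%) lay above it at 0.63, 0.54 and 0.64. *Rps14* (56.4%) and *Rplp1* (57.7%), named above for their spread, lay at 0.82 and 0.75, and *Rpl30* (44.5%) at 0.22. The length of the coding sequence had rho = -0.09 with the SD and the mean TPM had -0.57 over the same 55, and the parts of base composition, level and library preparation in the spread were not tested.

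**Figure D3:**
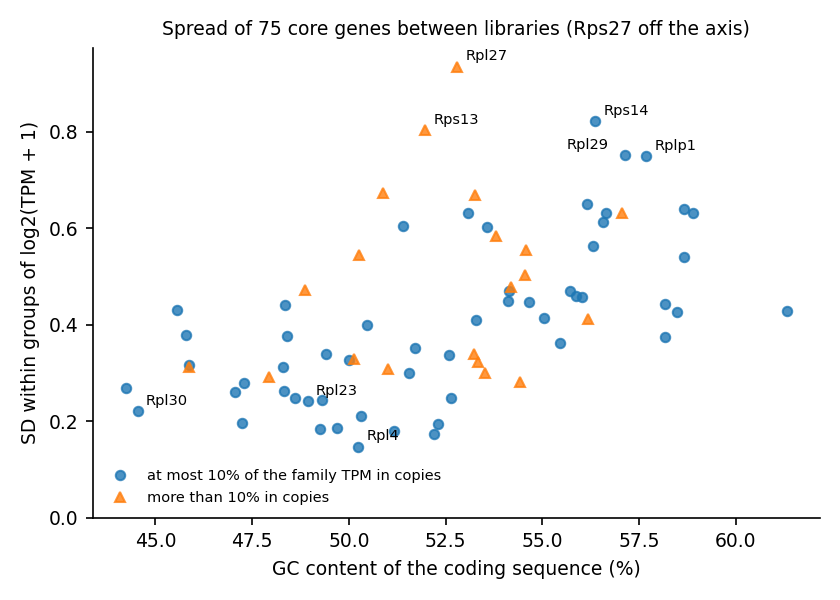
SD within groups of log2(TPM + 1) of 75 core members (y axis) against the GC content of the coding sequence (x axis, %). Markers set apart the members whose near-identical copies hold at most 10% of the TPM of member and copies together from the others, and *Rps27* lies above the axis at 2.81. The SD is higher in members of high GC content, with rho = 0.67 over the 55 members with few reads in copies.

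Most members rose and fell together. On deviations from the group means, the 2850 pairs of core members had a median r of 0.68, and 87.3% were above 0. Each member's r with the sum of the others had a median of 0.88, and 63 of 76 were above 0.5, while the other genes had a median r of 0.10 with the core sum and 21.8% were above 0.5. The lowest were *Rpl5* (-0.37), which binds the 5S RNA, *Rpl23* (-0.21), *Rpl10* (-0.11), *Rps20* (-0.07) and *Rps27* (0.03). When the TPM of near-identical copies was added to each member, r became 0.68 for *Rpl5*, 0.79 for *Rpl10* and 0.95 for *Rps27*, and stayed at -0.15 for *Rpl23* and -0.04 for *Rps20*. All genes of a library share its total, its depth and its preparation, and the values have no p.

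Many members share their coding sequence with copies elsewhere in the genome. Other annotated genes matched the coding sequence of 64 members at 95% identity or more over at least 50% of its length, and 153 such copies reached 0.1 TPM. Of these, 106 are annotated as pseudogenes, 43 as protein coding and 4 otherwise, and 59 exceeded 1 TPM. The copies held 23.75% of the TPM of members and copies together, between 21.3% and 26.5% in single libraries. For 14 members they held more than the member itself. *Gm13654* and the other copies of *Rps6* held 1087 TPM against 202 at *Rps6*, those of *Rps12* held 1080 against 359, those of *Rpl5* 735 against 86.0, those of *Rpl27a* 704 against 20.8 and those of *Rpl27* 409 against 6.23. How reads were shared out between a member and its copies was set in the authors' quantification, and levels of these members are uncertain for that reason.

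*Rps27* showed this most plainly. Its own gene was at 0, 145, 0, 0 and 0 TPM in control LFD mice, 0, 0, 100.2, 0 and 8.35 in knockout LFD mice, 7.003, 0, 0, 268 and 0 in control HFD mice and 0, 0, 0, 0 and 0 in knockout HFD mice. Together with its copy, *Gm9846*, it was at 176, 384, 389, 813 and 300.5 TPM in control LFD mice, 395, 609, 369.8, 239 and 244 in knockout LFD mice, 369, 242, 455, 307 and 405 in control HFD mice and 579, 311, 205, 480.4 and 389.7 in knockout HFD mice. In control mouse 14 the member held 268 TPM and the copy 38.3, while in every knockout mouse on HFD the copy held all of it. Adding the copies took the coefficient of variation (CV) within groups from 269.9% to 42.96% for *Rps27*, from 48.1% to 10.9% for *Rps12*, from 49.4% to 16.4% for *Rpl11* and from 82.5% to 30.1% for *Rps13*. The CV fell for 45 of the 64 members with a copy. The sum over members and copies had log2 ratios of 0.11 and 0.04 for genotype on HFD and LFD, and of -0.05 and 0.03 for diet in control and knockout mice.

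**Figure D4:**
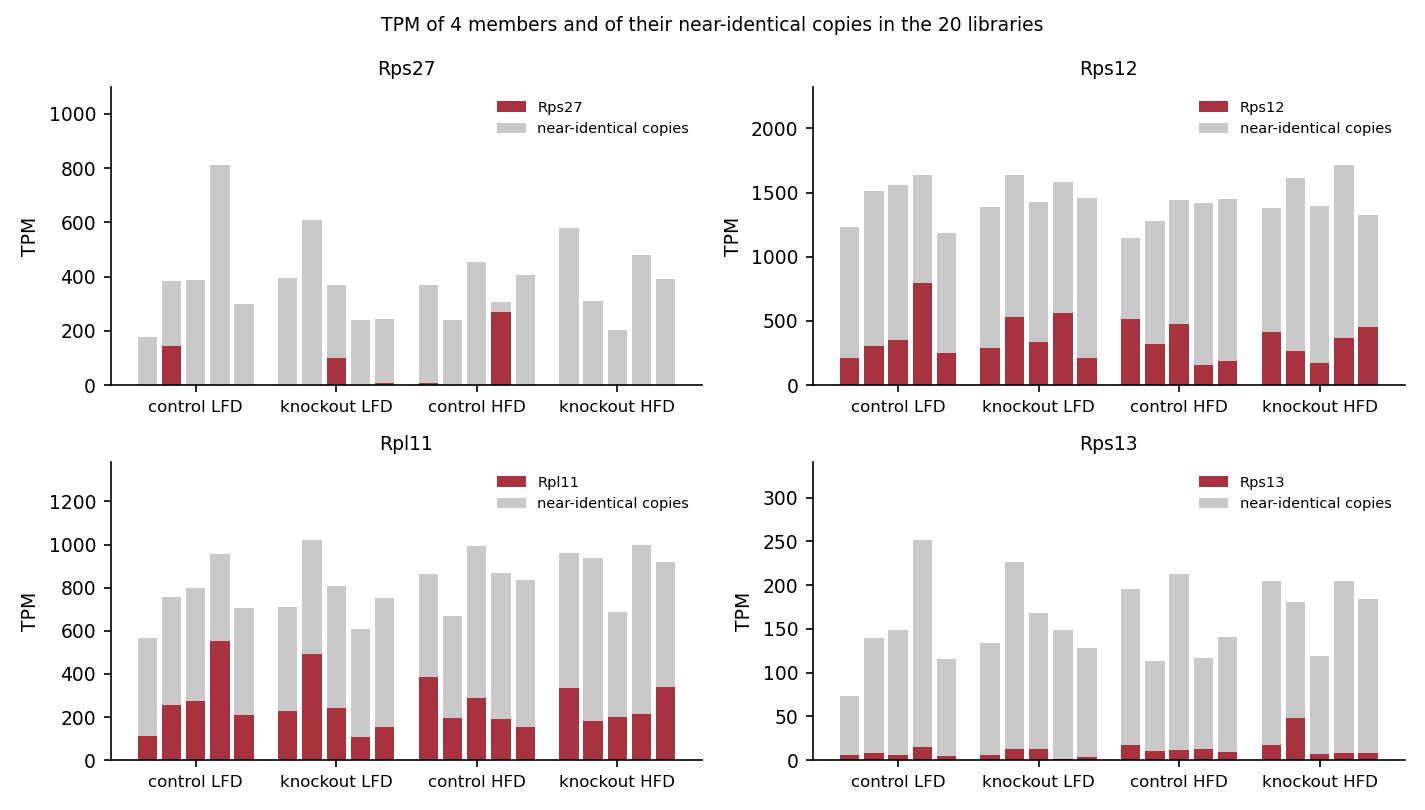
TPM (y axis) of *Rps27*, *Rps13*, *Rps12* and *Rpl11* in red and of their near-identical copies stacked in grey, 1 bar per library, ordered by group. The height of the stack varies less than the red part, which for *Rps27* is 0 in 15 of 20 libraries.

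Knockout was compared with control mice on HFD to ask whether loss of *Tmem120a* in adipocytes moved these genes. Of 83 members tested, edgeR called 0 at an adjusted p under 0.1 (Benjamini-Hochberg over all genes), DESeq2 called 0, and 3 had an unadjusted p under 0.05. Over all 15228 genes edgeR called 0.00657%, DESeq2 called 0.657%, and 4.66% had an unadjusted p under 0.05. The median log2 fold change of the members was 0.10, against 0.01 over all genes, with 64 of 83 above 0 where 51.3% of all genes were. By class the medians were 0.11 for 60S, 0.08 for 40S, 0.05 for the P stalk and -0.14 for the paralogs. Without knockout mouse 17 the median of the members was -0.01, so the direction rested on that library. With all libraries, the median was 0.08 on log2(TPM + 1) in limma, with 59 of 83 members above 0, against 0.00 over all genes. With transcripts detected as a covariate in edgeR it was 0.14, with 75 of 83 above 0. In that fit 8 members had an unadjusted p under 0.05, against 986 of 15228 genes, and 0 members were called.

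Members with the largest rises on HFD were *Rps13* (log2 fold change 0.56 ± 0.42, SE), *Rpl27a* (0.47 ± 0.19) and *Rps4x* (0.36 ± 0.19), all with an edgeR adjusted p of 0.999. *Rps13* lay at 5.64, 8.72, 6.07, 15.3 and 4.43 TPM in control LFD mice, 6.22, 12.6, 12.3, 1.89 and 3.66 in knockout LFD mice, 17.9, 9.92, 12.1, 12.9 and 8.82 in control HFD mice and 17.2, 48.2, 7.42, 8.71 and 8.53 in knockout HFD mice. The value of knockout mouse 18 was the highest of all 20, and without it the log2 fold change was -0.06. With its copies added, *Rps13* averaged 156 ± 45.8 (control) and 179 ± 35.5 TPM (knockout) on HFD. At the other end were *Rpl39l* (-0.48 ± 0.56) and *Rps27l* (-0.28 ± 0.19), and *Rps27*, which was at 0 in all 5 knockout mice. *Rps27* was above 0 in only 2 control mice on HFD and had an adjusted p of 0.875 in edgeR. The 2 groups did not part for any member, while they parted for 0.69% of all genes.

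On LFD the question was the same. Of 84 members tested, edgeR and DESeq2 each called 0, and 2 had an unadjusted p under 0.05 in edgeR, whose background was 0.00636% of 15717 genes called (0.108% in DESeq2) and 5.11% under 0.05. The median of the members was -0.15, against -0.02 over all genes, and 9 of 84 were above 0 where 47.2% of all genes were. On the TPM scale (limma on log2(TPM + 1)) the median was 0.01, against 0.07 over all genes. There 45 of 84 members were above 0 where 61.6% of all genes were, so the members stayed below all genes. Without control mouse 4 the median was 0.11 in edgeR, against 0.01 over all genes. When transcripts detected entered as a covariate, the edgeR median was 0.16 with 66 of 84 above 0, so the sign of the median depended on the scale, on that library and on this covariate. The medians were -0.14 for 60S, -0.15 for 40S, -0.12 for the P stalk and -0.31 for the paralogs. No member parted the groups, against 1.4% of all genes.

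The 2 members under 0.05 on LFD were *Rps27a* and *Rps27l*. *Rps27a*, which encodes a fusion of ubiquitin to a small subunit protein, lay at 36.3, 48.03, 43.8, 71.8 and 36.8 TPM in control LFD mice, 32.9, 44.04, 25.9, 30.4 and 25.04 in knockout LFD mice, 42.5, 32.9, 35.9, 42.4 and 32.6 in control HFD mice and 47.5, 26.9, 33.3, 41.3 and 45.6 in knockout HFD mice. Control mouse 4 was highest, and the groups on LFD overlapped. Its log2 fold change on LFD was -0.63 ± 0.24 (SE, edgeR adjusted p = 0.929). *Rps27l*, a paralog that p53 is known to induce, lay at 153, 145, 170.2, 217 and 120.2 TPM in control LFD mice, 107, 175, 121, 56.6 and 119 in knockout LFD mice, 175, 213, 144, 162 and 91.4 in control HFD mice and 117, 115, 149, 126 and 164 in knockout HFD mice. Knockout mouse 9 was the lowest of all 20, and the fold change on LFD was -0.64 ± 0.28 (edgeR adjusted p = 0.929). The largest rises were those of *Rps4x* (0.19), *Rpl23* (0.11) and *Rps6* (0.09), and *Rps6* changed sign when transcripts detected entered as a covariate. *Rps6* lay at 177, 195, 176, 231 and 124 TPM in control LFD mice, 155, 213, 175, 215 and 265 in knockout LFD mice, 189, 172, 201, 194 and 205 in control HFD mice and 181, 316, 167, 316 and 171 in knockout HFD mice, with all 4 groups overlapping.

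HFD was compared with LFD in each genotype to ask whether diet moved the members. In control mice edgeR called 0 of 84 and DESeq2 called 3, and 5 had an unadjusted p under 0.05 in edgeR. Over 15311 genes edgeR called 9.32% and 20.7% had an unadjusted p under 0.05, and DESeq2 called 14.4% of genes in either direction and 7.5% as lower. The median of the members was -0.31, against -0.04 over all genes, with 4 of 84 above 0 where 45.8% of all genes were, and all 42 of the 60S subunit were below 0. On the TPM scale the median was -0.02 with 34 of 84 above 0, and the median of all genes moved from -0.04 to 0.13. Without control mouse 4 the edgeR median was -0.06, and with transcripts detected as a covariate it was -0.09 with 29 of 84 above 0. The members called lower by DESeq2 were *Rps27a* (-0.56, adjusted p = 0.0860), *Rpl22* (-0.43, 0.0904) and *Rpl7* (-0.43, 0.0789). In edgeR their adjusted p was 0.145, 0.154 and 0.160, and over the alternatives it ran up to 0.383, 0.689 and 0.521.

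*Rpl7*, of the large subunit, lay at 415, 520.0, 482, 671 and 431 TPM in control LFD mice, 490.5, 654, 479, 512 and 476 in knockout LFD mice, 426, 438, 506, 454 and 370.4 in control HFD mice and 534, 515, 478, 568 and 454 in knockout HFD mice. *Rpl22*, which is dispensable for the ribosome and has a role in T cell development, lay at 333, 429.8, 431, 508 and 313 TPM in control LFD mice, 417, 462, 344, 270.0 and 350.2 in knockout LFD mice, 337, 337, 397, 427 and 327 in control HFD mice and 399, 354, 273, 453 and 329.6 in knockout HFD mice. In both the values of control mice on the diets overlapped, and control mouse 4 was the highest of all 20. Without control mouse 1 edgeR called *Rps27a* (-0.64, adjusted p = 0.0955) and *Rpl7* (-0.51, adjusted p = 0.0893). The 3 members of largest fall were *Rpl3l*, described below, *Rps14* (-0.78 ± 0.53, edgeR adjusted p = 0.453) and *Rps27a* (-0.57 ± 0.21), and *Rps14* was at 0.00 without control mouse 4. *Rps4y2* was the member whose groups did not overlap, against 9.78% of all genes. This paralog of *Rps4x* lay at 5.65, 5.54, 6.09, 6.32 and 4.63 TPM in control LFD mice, 3.63, 7.42, 5.84, 2.58 and 1.78 in knockout LFD mice, 11.1, 8.75, 6.48, 6.36 and 8.24 in control HFD mice and 6.51, 3.79, 7.45, 5.85 and 10.3 in knockout HFD mice, with every control mouse on HFD above every control mouse on LFD by a small margin (6.36 against 6.32 TPM). Its log2 fold change was 0.37 ± 0.20 in control mice (edgeR adjusted p = 0.331).

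In knockout mice edgeR called 0 of 84 members between the diets and DESeq2 called 1, with 1 under an unadjusted p of 0.05 in edgeR, against 9.4% of 15705 genes called and 19.8% under 0.05, with 14.3% called by DESeq2 and 7.72% called lower. The median was -0.05, against 0.00 over all genes, with 26 of 84 above 0 where 50.3% of all genes were. On the TPM scale it was 0.06 with 51 of 84 above 0, against 0.08 over all genes with 58.3% above 0. It was 0.06 without knockout mouse 7, and 0.03 (47 of 84 above 0) with the covariate described above. No member parted the groups, against 7.95% of all genes. The member called by DESeq2 was *Rps27*, at 0 in every knockout mouse on HFD and above 0 in 2 on LFD. The largest rises were those of *Rps13* (0.78 ± 0.46, edgeR adjusted p = 0.390) and *Rps4y2* (0.70 ± 0.37, adjusted p = 0.328). When transcripts detected entered the fit as a covariate, *Rps4y2* (0.92, adjusted p = 0.0401) and *Rpl7l1* (0.49, adjusted p = 0.0381) were called higher on HFD, where 12.3% of all genes were called higher.

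The genotype effect on HFD was set against that on LFD in a fit of all 20 libraries. edgeR called 0 of 84 members and 0 of 15574 genes (0.0%), DESeq2 called 0 members and 0.0899% of genes, and 1 member had an unadjusted p under 0.05 in edgeR where 3.6% of genes did. The median difference was 0.21, against 0.01 over all genes, with 81 of 84 members above 0 where 51.8% of genes were, and all 42 of the 60S subunit were above 0. Without control mouse 4 the median was 0.01. On the TPM scale it was 0.07 with 63 of 84 above 0. The largest differences were those of *Rpl3l* (4.84 ± 2.58), *Rps16* (0.69 ± 0.34) and *Rps27a* (0.62 ± 0.32), with an edgeR adjusted p of 0.9999 each. The value of *Rpl3l* leaned on control mouse 5, at 6.34 TPM on LFD. The comparisons share their groups of mice, so their medians are not independent of each other.

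**Figure D5:**
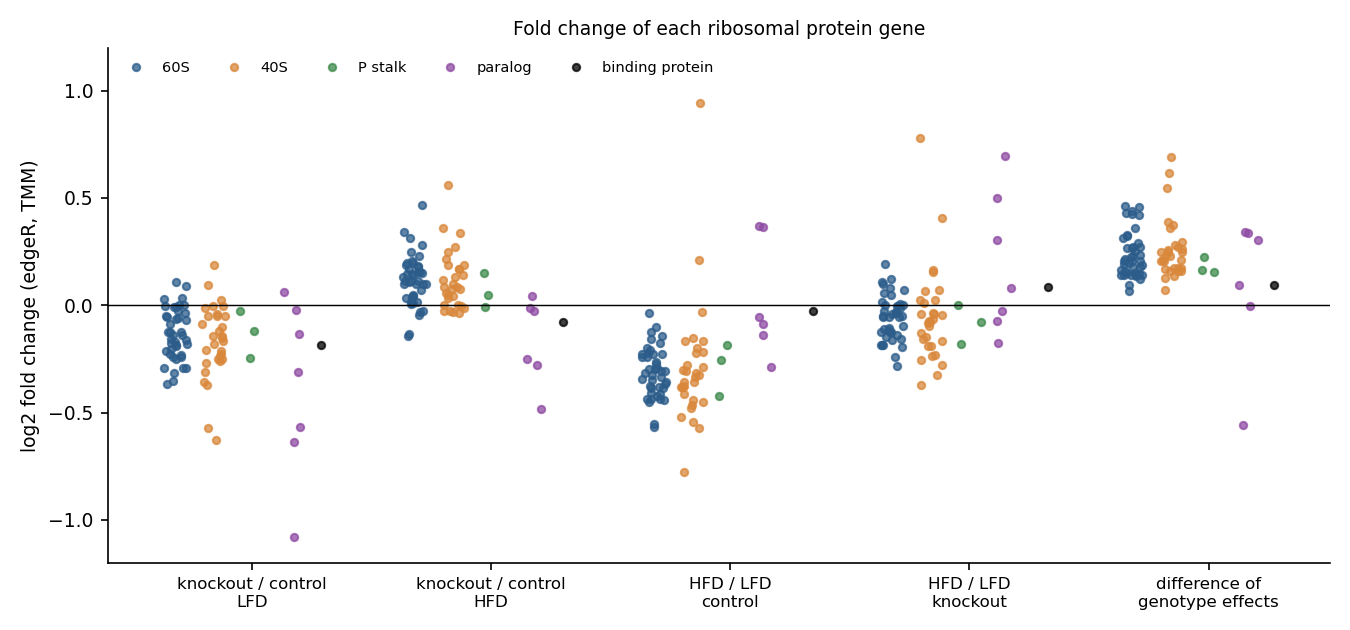
Log2 fold change of the tested members (y axis, edgeR with TMM scaling) in the 5 comparisons (x axis), coloured by class. Values of *Rps27* and *Rpl3l* that lie beyond the axis are not drawn. Most members lie above 0 for genotype on HFD (64 of 83) and for the difference of the genotype effects (81 of 84), and below 0 for diet in control mice (80 of 84). The last count was 50 of 84 with limma on log2(TPM + 1) and 55 of 84 with the covariate. Without knockout mouse 17 the count for genotype on HFD was 39 of 83. Without control mouse 4 the count for the difference was 45 of 84. None of the members was called by edgeR with all libraries.

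The paralogs differed in level from the members they resemble. *Rpl36al* was at a mean of 262 TPM beside 509 for *Rpl36a*, *Rps27l* at 142, *Rpl22l1* at 45.3 beside 375 for *Rpl22*, *Rpl7l1* at 11.6, *Rps4y2* at 6.22, *Rpl39l* at 5.42 beside 197 for *Rpl39*, and *Rpl3l* at 0.769 beside 282 for *Rpl3*. *Rpl22l1* can stand in for *Rpl22*, and lay at 35.1, 44.05, 44.9, 51.4 and 36.8 TPM in control LFD mice, 35.4, 50.2, 42.03, 55.5 and 47.3 in knockout LFD mice, 30.8, 40.9, 40.01, 59.9 and 59.2 in control HFD mice and 45.5, 76.5, 39.97, 34.4 and 35.5 in knockout HFD mice. Knockout mouse 18 was the highest of all 20. Its fold change for the difference of the genotype effects changed sign under several alternatives. *Rpl39l* lay at 3.37, 3.31, 3.43, 6.34 and 6.001 TPM in control LFD mice, 3.67, 4.81, 5.45, 7.70 and 4.23 in knockout LFD mice, 4.61, 6.42, 9.37, 4.26 and 10.3 in control HFD mice and 4.12, 3.94, 0.940, 10.4 and 5.79 in knockout HFD mice, with the highest values in control mice 13 and 15 and knockout mouse 20 and the lowest in knockout mouse 19, all on HFD. *Rps19bp1* was tested with the members and called in no comparison, with log2 fold changes between -0.19 and 0.09.

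*Rpl3l*, which replaces *Rpl3* in the ribosomes of striated muscle, was at 0, 0, 0.305, 0.318 and 6.34 TPM in control LFD mice, 1.23, 0.731, 0, 1.74 and 0 in knockout LFD mice, 0.0750, 0.330, 0.00766, 0 and 0 in control HFD mice and 2.22, 0, 0.841, 1.23 and 0 in knockout HFD mice. The highest value was that of control mouse 5 on LFD, and 8 libraries held 0 counts. In edgeR its log2 fold change between the diets in control mice was -4.36 ± 1.79 (adjusted p = 0.190), and in the genotypes on LFD it was -1.08 ± 1.70 with the opposite sign (0.18) on log2(TPM + 0.1). These values leaned on control mouse 5. Without that mouse *Rpl3l* averaged less than 0.5 TPM in these fits and was not tested. The 16 markers of skeletal muscle fibres moved with it. Their sum was 4216 TPM in control mouse 5 and had group means of 997 ± 1803 and 605 ± 525 TPM in control and knockout mice on LFD, and 79.2 ± 29.8 and 973 ± 701 TPM on HFD. Over the 20 libraries *Rpl3l* and this sum had r = 0.90 (rho = 0.83) on log2 scales, 0.95 on LFD, 0.86 on HFD and 0.88 without control mouse 5 and knockout mouse 17. No marker of the list was at 0 in all libraries. The part of muscle in the *Rpl3l* values was not tested further.

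Other genes of the pathway were taken from 5 lists and are described by their calls, with medians for genotype. In the genotype comparisons and in the difference between them 0 genes of these lists were called by edgeR or DESeq2, and between 0 and 3 genes a list had an unadjusted p under 0.05 in edgeR. Genes of mitochondrial ribosomal proteins moved like the members on LFD, with a median of -0.20 and 6 of 76 above 0. Their median was -0.02 on HFD, and 0.16 with 64 of 76 above 0 for the difference. In the other lists the medians ran from -0.09 to 0.05 on LFD, from -0.05 to 0.06 on HFD and from -0.06 to 0.12 for the difference. Between the diets, 4 of 22 genes of elongation factors and other TOP messages were called in control mice, with *Vim* (0.64, adjusted p = 0.0428) and *Nap1l1* (0.67, 0.0985) higher and *Pabpc1* (-0.74, 0.0451) and *Tpt1* (-0.53, 0.0925) lower on HFD. In knockout mice *Vim* (0.62, 0.0910) was higher and *Pabpc1* (-0.97, 0.00252), the poly(A) binding protein, was lower. Of 19 genes of RNA polymerase I and its factors, which make ribosomal RNA, *Rrn3* was called higher on HFD in control (0.45, adjusted p = 0.0165) and in knockout mice (0.50, 0.0369). The share of all genes called, 9.32% and 9.4%, is the background of these counts.

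Of 43 genes of ribosome assembly, *Sbds*, which frees the large subunit for translation, was called higher on HFD in control (0.44, edgeR adjusted p = 0.0552) and knockout mice (0.64, 0.0276). *Rrp12* (0.63, 0.0306) and *Ltv1* (0.51, 0.0819) were higher and *Dkc1* (-0.43, 0.0643) lower in control mice, and *Mdn1* (-0.65, 0.0271) was lower in knockout mice. Of 24 tested genes of the TOR pathway, *Myc*, which drives ribosomal genes, fell on HFD by 0.79 (log2, edgeR adjusted p = 0.0583) in control and by 0.91 (0.00732) in knockout mice. *Deptor*, an inhibitor of mTOR, fell by 0.52 (0.0864) and 0.95 (0.00191), and *Rptor* (-0.40, 0.0794) and *Tsc2* (-0.50, 0.0800) were lower in knockout mice. Of 76 genes of mitochondrial ribosomal proteins, *Mrpl48* (-0.54, 0.00972) was lower in control mice and *Mrpl54* (0.59, 0.0867) higher in knockout mice.

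Markers of other cell types were set beside the ribosomal protein sum. The 18 lymphocyte markers had summed means of 232 ± 151, 335 ± 93.2, 250.2 ± 142 and 265 ± 107 TPM in control and knockout mice on LFD and then on HFD, and ran from 39.9 to 438 TPM over single mice. Their log2 sum had r = 0.63 (rho = 0.51) with that of the members, and 0.64 on deviations from the group means. The 11 macrophage markers, with group means between 834 and 943 TPM, had r = 0.62 (0.68). Among the pathway lists, mitochondrial ribosomal proteins had 0.65 (0.60). RNA polymerase I and its factors had 0.42 (0.37), and elongation factors and other TOP messages had 0.37 (0.35). Ribosome assembly had -0.13 (-0.11) and the TOR pathway had -0.18 (-0.08). The values for white adipocytes (0.07), muscle fibres (0.04), cell cycle (0.02), stroma (0.11), epithelium (0.38) and endothelium (-0.28) were lower than those for lymphocytes and macrophages. No list had a marker at 0 in every library. Mitochondrial genome TPM had r = -0.40 with the sum and -0.83 on LFD, where both are shares of the same total. The parts of these cells and of the mitochondrial share in the sum were not tested.

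Libraries of total RNA also hold RNA that is not fully spliced. Of the TPM of the members, 14.7% lay in transcripts not annotated as protein coding (10.2% to 19.1% in single libraries) and 10.4% in transcripts with a retained intron (6.89% to 12.8%). The copies with symbols ending in -ps summed to 2773 ± 409 TPM (SD, n = 20), between 2129.6 and 3755 TPM.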

How the data were processed

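iWAT RNA of 20 mice was depleted of ribosomal RNA and sequenced in pairs with a stranded kit (TruSeq Stranded Total RNA Gold). Per the methods, the authors quantified each library with Salmon 0.13.1 on Ensembl transcripts of NCBIM37 (release 67) and deposited an estimated count and a TPM value for each of 96533 transcripts, unscaled between libraries. The processing notes also name STAR 2.5.3 on mm9, and whether Salmon read those filtered alignments is not given in the sources used here.

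Transcripts were summed per gene with GENCODE vM1 (Ensembl 65), which held 97.7% of them, and unmatched ones took 0.377% to 0.581% of the counts. Genes that averaged 0.5 TPM or more were tested, on rounded count sums, with edgeR 4.0.16 (quasi-likelihood, TMM) on all genes, a call being an adjusted p under 0.1. Libraries are separate mice, and p-values measure the spread between these mice. The labels give no batch. Alternatives were DESeq2 1.42.0, limma 3.58.1 on log2(TPM + 1), other scalings, filters, length offsets, a covariate, all libraries together and leaving out each library. Adding copies, found with BLAST 2.17.0, was chosen after seeing the data. The fits were tested on simulated data. Transcript counts were compared by exact permutation (scipy 1.17.1), and tables were made with Python 3.11.15 and R 4.3.3.

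Named genes are the 8 members of highest mean, *Rplp0* to *Rplp2*, *Rpsa*, *Rps6*, *Rps27a*, paralogs and their partners, members called, the 3 largest rises and falls per comparison, and called genes of the lists. *Rpl4*, *Rpl7*, *Rpl22*, *Rps14* and the members named for spread, correlation or copies were chosen after their values were seen. Members, lists and tests were chosen with earlier results of these data known. RefSeq start windows are of GRCm38.p6, a build other than that of the files, and were matched by symbol. A further gene list is not reported here.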

Additional observations from a re-analysis of the deposited data

Results flagged for a closer look

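In groups of 5, a value was singled out where its gap to the nearest other, divided by the group's range, exceeded Dixon's critical value at 95%. For normally distributed values about 1 in 20 groups would be singled out, or 3.2 of the 64 groups looked at, and 8 were found. That rate does not hold for *Rps27* and *Rpl3l*, whose groups were mostly at or near 0, so 8 and 3.2 cannot be compared. The number of transcripts detected was 40451 in control mouse 1, against 49335 to 52487 in the other control mice on LFD, and the same library had the lowest ribosomal protein sum. *Rps24* was at 2359 TPM in knockout mouse 7, against 1412 to 1632 TPM in the other knockout mice on LFD. *Rps27* was at 145 TPM in control mouse 2, 100.2 TPM in knockout mouse 8 and 268 TPM in control mouse 14, in groups whose other values were 0 or below 10 TPM, and its near-identical copy *Gm9846* held most or all of the TPM of the pair in the other libraries. *Rpl3l* was at 6.34 TPM in control mouse 5, the library with the highest sum of muscle markers, and at 0.330 TPM in control mouse 12. *Rpl22l1* was at 76.5 TPM in knockout mouse 18, against 34.4 to 45.5 TPM in the other knockout mice on HFD.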

How the results depend on the processing

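No paired analysis was possible because the groups share no replicate numbers. The count of members called was 0 in edgeR in each comparison. Between the diets it was 3 in control and 1 in knockout mice with DESeq2, and 2 in knockout mice when transcripts detected entered as a covariate. Leaving out single libraries gave 0 to 2 calls in control mice (2 without control mouse 1) and 0 to 1 in knockout mice (1 without knockout mouse 7). The log2 ratio of the summed TPM between the diets in knockout mice moved to -0.22 on TPM rescaled to protein-coding genes. The difference in transcripts detected between the diets in control mice ran from -7748 to -3320 over the libraries left out and passed an unadjusted p of 0.05 without control mouse 1. Median fold changes over the libraries left out ran from -0.01 to 0.17 for genotype on HFD, from -0.28 to 0.11 on LFD, from -0.43 to -0.06 for diet in control mice, from -0.15 to 0.06 in knockout mice and from 0.01 to 0.35 for the difference of the genotype effects.

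Fold changes with a change of sign were those of *Rpl3l* for genotype on LFD (0.18 with limma on log2(TPM + 0.1)), *Rps6* for genotype on LFD (-0.0038 with the covariate) and *Rpl22l1* for the difference of the genotype effects (0.091 with the covariate). Over the libraries left out, they ran from -0.062 to 0.75 for *Rps13* on HFD, from -0.034 to 0.25 for *Rps6* on LFD, from -1.11 to 0.0049 for *Rps14* between the diets in control mice and from -0.56 to 0.0045 in knockout mice, from -0.058 to 1.09 for *Rpl3l* between the diets in knockout mice and from -0.22 to 0.11 for *Rpl22l1*. The causes were not tested. Over all genes, limma on log2(TPM + 1) called 1640 higher and 363 lower between the diets in control mice, where edgeR called 676 and 751, and 815 and 520 in knockout mice, where edgeR called 714 and 762. It called 0 of the members. The other 898 values kept their direction and their side of the threshold, or stayed within the limit set for counts and untested values. An untested value could change sign within that limit. Over the libraries left out, the median for genotype on LFD did so (-0.28 to 0.11), as did that for diet in knockout mice (-0.15 to 0.06). Depth and shared reads limit the members at 0 or at a few counts (*Rpl10l*, *Rpl3l* and *Rps27*).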
